A study of Mus musculus with 4 samples.

Results

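TRAF adaptors and the ubiquitin-editing brakes around A20 were examined in NKT cells of the small intestinal lamina propria (SI-LP). The set holds 10 genes chosen by name, *Traf1* to *Traf6*, *Tnfaip3*, *Tnip1*, *Cyld* and *Birc3*, and all 10 were found among the 25239 genes of the count table. All 10 had at least 29 counts in each of the 4 libraries and were among the 11689 genes that passed the filter on low counts (at least 10 counts in at least 2 libraries). NKT cells, which recognize lipids presented by CD1d, had been sorted as live TCRβ+ cells that bound the PBS57-loaded CD1d tetramer and lacked B220, CD11b, CD11c and CD8. The mice were wild-type C57BL/6Jax animals, young adults of both sexes per the methods, without any allele or treatment that separates the libraries. All of them had received an anti-ARTC2 nanobody shortly before harvest. The labels mark replicates 3 and 4 as "First" and replicates 1 and 2 as "Second", here called the first and the second experiment. The labels do not say whether a library held cells of 1 mouse or of several, so any p-value measures the spread between these libraries only. NKT cells of lymphoid organs were not analysed here, so the values describe levels in libraries of sorted SI-LP NKT cells and how they vary. These libraries also held transcripts of other cell types.

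Receptors of the TNF receptor superfamily have no enzyme activity of their own. Many signal by recruiting TRAF proteins to their cytoplasmic tails, directly or through another adaptor. TRAF2 and TRAF5 bring in the ubiquitin ligases cIAP1 and cIAP2 (*Birc2* and *Birc3*), whose ubiquitin chains recruit the TAK1 and IKK kinases and so activate NF-κB, while TRAF3 restrains the alternative NF-κB pathway by directing the kinase NIK to degradation. TRAF6 serves Toll-like and interleukin receptors and some TNF receptors, and TRAF1, which lacks the RING domain of the other TRAFs, modifies signalling by TRAF2. A20 (*Tnfaip3*) edits and binds ubiquitin chains at the receptor, ABIN1 (*Tnip1*) binds ubiquitin and A20, and CYLD removes ubiquitin chains. These brakes end the signal, and A20 and cIAP2 are themselves well-known products of NF-κB activity, so that the pathway induces its own inhibitor.

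RefSeq promoter windows (250 bases before and 50 after an annotated start, GRCm38.p6) were found for all 10 genes, with 11 windows in all. They were searched on both strands for the letters GGNNTTNCC, a core of NF-κB binding sites, which reads GGNAANNCC on the other strand. Of all 32851 windows, 16.0% held at least 1 match, as did 17.3% of the 11818 windows of genes that passed the filter. Of the 11 windows of the set, 5 held a match, those of *Traf2*, *Traf3*, *Tnfaip3*, *Tnip1* and *Cyld*. The 120 bases before the start are shown for the most abundant gene of the set, *Tnfaip3*, and for *Tnip1* and *Traf3*, whose ratio to each other varied least between libraries, 5′ to 3′ on the strand of the gene with the matches in capitals.
*Tnfaip3*, chr10:19015411-19015530, minus strand: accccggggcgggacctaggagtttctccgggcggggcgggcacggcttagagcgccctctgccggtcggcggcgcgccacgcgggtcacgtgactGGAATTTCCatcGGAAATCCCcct
*Tnip1*, chr11:54962941-54963060, minus strand: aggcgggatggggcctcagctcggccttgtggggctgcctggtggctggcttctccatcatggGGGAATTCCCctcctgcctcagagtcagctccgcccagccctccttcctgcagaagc
*Traf3*, chr12:111166250-111166369, plus strand: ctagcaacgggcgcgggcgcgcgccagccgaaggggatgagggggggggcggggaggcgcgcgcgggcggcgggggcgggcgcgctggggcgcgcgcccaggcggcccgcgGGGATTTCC
*Tnfaip3* held 2 matches in tandem, on opposite strands, which began 24 and 12 bases before the start. The 2 matches of *Tnip1*, 57 and 56 bases before the start, overlap and lie on opposite strands, so that together they form a palindrome. *Traf3* held a match that ends at the last base before the start and another, outside the stretch shown, 245 bases before it. A second annotated start of *Tnfaip3* and the windows of *Traf1*, *Traf4*, *Traf5*, *Traf6* and *Birc3* held none of these letters. A match is a description of the sequence, and binding was not measured here.

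The libraries held 3882803 to 8732858 counts. The rRNA-derived *Rn45s* made up 11.4% and 7.36% in replicates 1 and 2, but 28.1% and 21.6% in replicates 3 and 4. Its part in differences between the experiments was not tested. A level of 3 counts, the limit that a count of 0 allows, was equal to 0.287 to 0.753 CPM (counting error only). Levels are given as CPM, counts scaled to a common library total with edgeR's TMM factors, to compare libraries. They are also given as TPM, to compare genes. TPM divides raw counts by the exonic length of the gene and scales them to the library's own sum. It uses no TMM factors, so the order of libraries can differ between TPM and CPM. T cell transcripts were measured by 10 markers such as *Cd3e*, all of which passed the filter, with a median percentile of 95.4 by mean TPM. Their summed level was 3887 and 1312 CPM in replicates 1 and 2 compared with 5745 and 2031 CPM in replicates 3 and 4. The 21 epithelial markers such as *Epcam* all passed the filter. Their median percentile was 95.9, so this measure does not set the T cell markers apart. They summed to 960.0 and 10214 CPM in replicates 1 and 2 compared with 235 and 29517 CPM in replicates 3 and 4. In each experiment, the library with fewer T cell transcripts was thus the one with more epithelial transcripts. The Paneth cell gene *Lyz1* made up 71.7% of the epithelial sum in replicate 4, and without it the sums were 659, 9876, 224 and 8365 CPM in replicates 1 to 4, so that this order held within each experiment but replicate 4 was no longer above replicate 2. Of 10 plasma and B cell markers, 7 passed the filter, and the list summed to 6332 and 6594 CPM in the second experiment and to 7.14 and 242 CPM in replicates 3 and 4. *Jchain* gave 96.3% and 96.8% of this sum in replicates 1 and 2, but 34.4% and 80.9% in replicates 3 and 4. The epithelial sum thus exceeded the T cell sum in replicates 2 and 4, and the plasma and B cell sum exceeded it in replicates 1 and 2. Myeloid (5 of 10 passed the filter, 23.9 to 143 CPM, *S100a8* and *S100a9* at 0), stromal and endothelial (6 of 8, 26.1 to 189 CPM, *Kdr* at 0) and mast cell markers (1 of 5, 1.39 to 62.9 CPM, *Mcpt1*, *Mcpt2* and *Fcer1a* at 0) were also measured.

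*Tnfaip3* stood apart from the other 9 genes. This gene (chromosome 10, 19000910 to 19015410, GRCm38) had 1401, 727, 1245 and 545 TPM in replicates 1 to 4, or 979.6 ± 409 TPM (SD, n = 4). It was at percentile 98.9 of the genes that passed the filter and ranked between 80 and 208 of all 25239 genes in single libraries. The A20 transcript alone made up 59.9% and 68.9% of the summed TPM of the 10 genes in replicates 1 and 2 and 64.2% in each library of the first experiment. Against the 6 TRAF genes summed, its TPM was 5.01, 6.58, 3.73 and 3.68 times as high in replicates 1 to 4. In CPM, *Tnfaip3* had 2144, 1085, 2326 and 1012 in replicates 1 to 4. Its highest library exceeded its lowest by 2.30-fold, the smallest such ratio of the set in CPM, where the median over all genes that passed the filter was 5.02 and over the set 3.83. By SD as a percent of the mean CPM, *Traf2* varied less (38.5% against 42.0%). Relative to the summed T cell markers described below, *Traf4* (1.57-fold), *Traf5* (1.72), *Traf6* (1.72) and *Cyld* (1.76) had narrower ranges than *Tnfaip3* (2.04-fold), and the other genes of the set wider ones. *Tnfaip3* was high in replicates 1 and 3 and low in replicates 2 and 4, so the levels of the experiments overlapped.

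**Figure D1:**
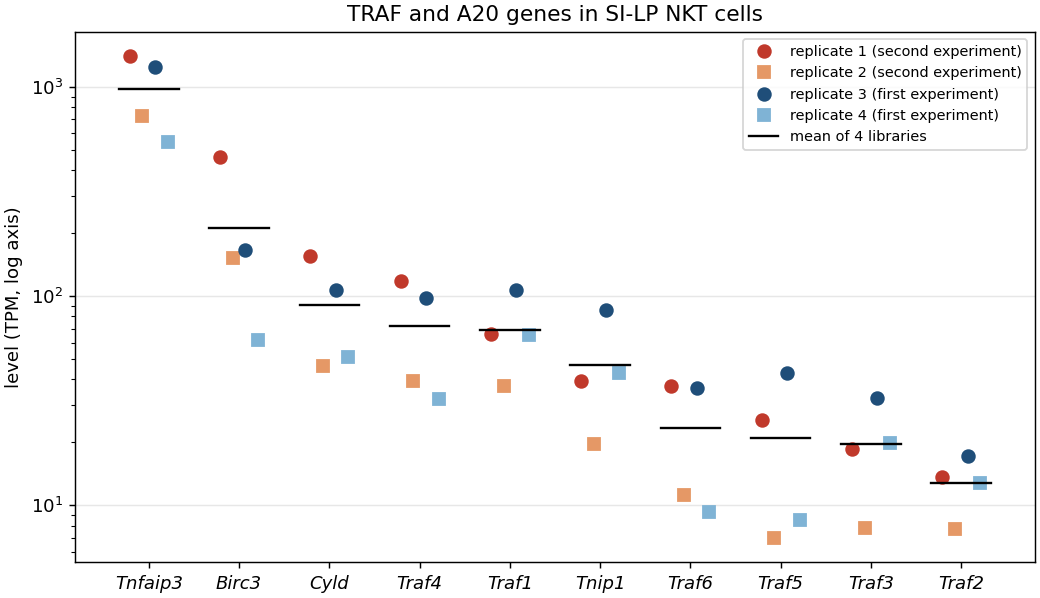
Level of each gene in TPM (log axis), ordered by the mean of the 4 libraries (black line), with 1 point per library, red and orange for the second and blue for the first experiment. *Tnfaip3* lies above all other genes of the set in every library, and for each gene the squares (replicates 2 and 4) lie below the circle of the same experiment (replicates 1 and 3).

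The other brakes and cIAP2 followed at lower levels. *Birc3* (chromosome 9, 7848701 to 7873170), the cIAP2 ligase recruited by TRAF2, had 465, 152, 167 and 61.9 TPM in replicates 1 to 4 (211 ± 175, percentile 94.4). Replicate 1 was far above the other libraries, and *Birc3* had the second widest range of the set, 6.19-fold from the lowest to the highest CPM. *Cyld* (chromosome 8, 88697028 to 88751946), the deubiquitinase, had 156, 46.5, 107 and 51.0 TPM in replicates 1 to 4 (90.2 ± 51.9, percentile 84.8). The libraries of the 2 experiments overlapped for *Cyld*, with replicates 1 and 3 again the high ones. *Tnip1* (chromosome 11, 54910787 to 54962940), the ubiquitin-binding partner of A20, had 39.3, 19.5, 85.7 and 42.98 TPM (46.9 ± 27.9, percentile 70.3). Both libraries of the second experiment were below both of the first for *Tnip1*. Per length, the transcript of A20 was thus far more abundant than that of its partner.

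Of the TRAF adaptors, *Traf4* and *Traf1* were the most abundant. *Traf4* (chromosome 11, 78158423 to 78165550) had 118, 39.5, 98.3 and 32.1 TPM in replicates 1 to 4 (72.0 ± 42.7, percentile 80.5). *Traf1* (chromosome 2, 34941750 to 34961772), the TRAF without a RING domain, had 66.2, 37.3, 107 and 65.5 TPM (69.0 ± 28.8, percentile 79.6). Which of these genes was higher differed between libraries, *Traf4* in replicates 1 and 2 and *Traf1* in replicates 3 and 4. *Traf6* (chromosome 2, 101678420 to 101701668), the adaptor of Toll-like and interleukin receptors, had 37.3, 11.2, 36.3 and 9.23 TPM (23.5 ± 15.4, percentile 50.5). *Traf5* (chromosome 1, 191997203 to 192092599), which acts beside TRAF2, had 25.6, 6.98, 42.7 and 8.54 TPM (20.96 ± 16.8, percentile 47.0). Both were high in replicates 1 and 3 and several times lower in replicates 2 and 4, and *Traf5* had the widest range of the set in CPM, 7.65-fold. *Traf3* (chromosome 12, 111166370 to 111267155), the restraint on the alternative pathway, had 18.6, 7.82, 32.4 and 19.95 TPM (19.7 ± 10.1, percentile 45.4). *Traf2* (chromosome 2, 25517982 to 25546940), the main partner of the TNF receptors and cIAPs, was the lowest by mean TPM, with 13.7, 7.69, 17.2 and 12.8 TPM (12.8 ± 3.93, percentile 33.7). In replicates 2 and 4, *Traf5* was lower than *Traf2*, as was *Traf6* in replicate 4. *Traf2*, *Traf3* and *Traf5* were thus below the median of the genes that passed the filter by mean TPM, although each was above it in at least 1 library (highest percentiles 51.6, 66.6 and 72.6), whereas the ligase gene *Birc3* was at percentile 94.4. The median percentile of the 10 genes was 74.9. No exon of the 10 genes overlaps an exon of another gene in the table.

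The order by mean TPM was *Tnfaip3*, *Birc3*, *Cyld*, *Traf4*, *Traf1*, *Tnip1*, *Traf6*, *Traf5*, *Traf3* and *Traf2*. Of the 9 neighbouring pairs in this order, 6 kept their order in all 4 libraries. The mean log2 ratio of TPM was 2.47 ± 0.70 (SD, n = 4) for *Tnfaip3* over *Birc3*, 1.05 ± 0.70 for *Birc3* over *Cyld* and 0.65 ± 0.26 for *Traf1* over *Tnip1*. *Traf4* and *Traf1* (2 of 4 libraries), *Traf6* and *Traf5* (3 of 4) and *Traf5* and *Traf3* (2 of 4) did not keep their order, so these neighbours did not differ beyond their spread. *Tnip1* exceeded *Traf6*, and *Traf3* exceeded *Traf2*, in all 4 libraries, but by as little as 0.07 and 0.02 log2 units in the closest one. Genes further apart in the order also changed places, as *Traf1* was above *Birc3* and *Cyld* in replicate 4. Without correction for length, *Cyld*, whose exons are the longest of the set, moved above *Birc3*, and *Traf3* moved from rank 9 to 7.

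Within each experiment, all 10 genes were lower in the library with more epithelial transcripts, that is in replicate 4 than in 3 and in replicate 2 than in 1. This held for 29.9% of all genes that passed the filter and for all 10 T cell markers. The difference was over 1 log2 unit in both experiments for 6 genes, *Traf4*, *Traf5*, *Traf6*, *Tnip1*, *Cyld* and *Birc3*, and for 8.08% of all genes. Of the 10 T cell markers, 6 were also lower by over 1 log2 unit in both. No gene of the set was higher by over 1 log2 unit in both, whereas 19.0% of all genes were. *Traf5* had the widest log2 differences in CPM, -2.28 for replicate 4 against 3 and -1.85 for replicate 2 against 1, and *Traf6* had -1.97 and -1.76. *Cyld* had -1.08 and -1.78, *Traf4* -1.62 and -1.61, and *Birc3* -1.43 and -1.65. *Tnip1*, with -1.001 and -1.03, was just inside this limit and *Tnfaip3*, with -1.20 and -0.98, just outside it. *Traf1* (-0.72 and -0.86), *Traf2* (-0.43 and -0.84) and *Traf3* (-0.71 and -1.27) were less apart in the first experiment. With 1 library on each side, these differences are values with no test.
The median log2 difference of the 10 genes was -1.14 in the first and -1.44 in the second experiment, against 0.08 and 0.13 for all genes that passed the filter. The summed T cell markers differed by -1.50 and -1.57 log2 units. Expressed relative to these markers, 0 genes of the set were lower by over 1 log2 unit in both experiments, 5 were higher and 3 lower in both at any size (76.8% and 3.17% of all genes), and the medians were 0.36 and 0.13, where all genes had 1.58 and 1.70. In bulk libraries, fewer NKT cells among the sorted cells and less of these transcripts per NKT cell cannot be told apart, and the part of the epithelial transcripts in these differences was not tested.

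**Figure D2:**
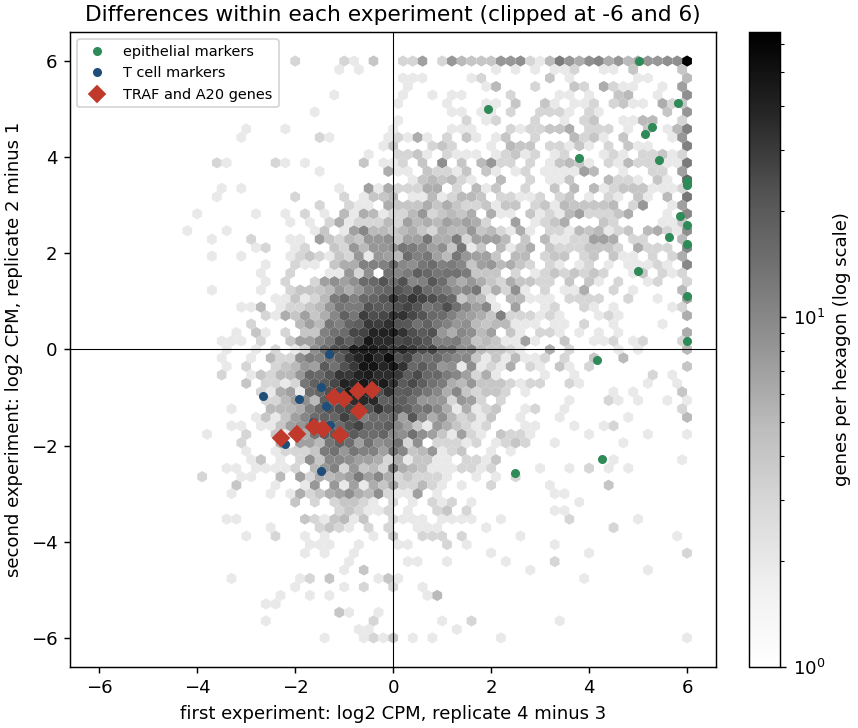
Log2 difference in CPM between the libraries of the first (x axis) and the second experiment (y axis), for all 11689 genes (grey, shaded by number), epithelial markers (green), T cell markers (blue) and the 10 genes of the set (red). All 10 red points lie at the lower left, below 0 on both axes, and differences beyond 6 are drawn at 6.

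The experiments were compared to measure how far the levels hold from one experiment to the next. With 2 libraries each, 0 of the 10 genes differed by the quasi-likelihood test of edgeR (adjusted p under 0.05, Benjamini-Hochberg over all genes), and the share of all genes called was 0% too (0 of 11689). At an unadjusted p under 0.05 there were 0 of the 10 and 248 of all genes, and DESeq2 called 0 of the 10 and 41 of all. With 2 libraries a side and this spread between them, the absence of calls does not show that levels were equal. The log2 fold change of the second over the first experiment ran from -1.43 (standard error 0.80) for *Tnip1* to 1.14 (standard error 0.80) for *Birc3*, each with an adjusted p = 0.9997 by edgeR. The changes of *Tnfaip3* (-0.05, standard error 0.79), *Cyld* (0.06, 0.77) and *Traf4* (-0.02, 0.86) were near 0, with errors that leave room for a change of over 1 log2 unit either way. The median over the set was -0.49 and over all genes 0.03.

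In CPM, the levels of 4 genes did not overlap between the experiments. *Traf1* had 84.5 and 46.4 CPM in replicates 1 and 2 against 167 and 101 CPM in replicates 3 and 4, and *Tnip1* had 39.9 and 19.3 against 106 and 52.9 CPM. *Traf3* had 44.3 and 18.2 CPM in the second experiment and 94.4 and 57.7 CPM in the first. *Traf2* had 13.99 and 7.66 against 21.4 and 15.8 CPM. In each of these, both libraries of the second experiment lay below both of the first, which held for 14.4% of all genes. The opposite order was found for 0 of the 10 and for 14.7% of all genes. Without replicate 1, 8 genes of the set lay lower in the second experiment, as did 32.9% of all genes, and without replicate 4 there were 8 as well (28.5% of all genes). Without replicate 2, 2 genes lay higher (32.4% of all genes), as did 2 without replicate 3 (28.5%). The count thus depends on single libraries, and with 3 libraries fewer values have to be apart. It also depends on the scale. In TPM, *Traf1* (66.2 in replicate 1 and 65.5 in replicate 4) and *Traf2* (13.7 and 12.8) overlapped, whereas *Tnip1* and *Traf3* did not.

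Relative to the T cell markers, the set divided. *Birc3* had a CPM equal to 11.2% and 10.6% of the summed T cell markers in replicates 1 and 2, but to 3.31% and 3.46% in replicates 3 and 4. The libraries of one experiment were thus nearly equal on this scale, and the second experiment was 3.21-fold above the first. *Traf4* was also close within experiments, with 3.05% and 2.95% in the second and 2.10% and 1.93% in the first. *Tnfaip3* stood at 55.1% and 82.7% of the markers in replicates 1 and 2, against 40.5% and 49.8% in replicates 3 and 4. *Traf6* and *Cyld* had the same order, so that 5 of the 10 genes lay higher in both libraries of the second experiment, as did 17.5% of all genes. *Tnip1* (1.03% and 1.47% against 1.85% and 2.61%) and *Traf3* (1.14% and 1.39% against 1.64% and 2.84%) were the 2 genes of the set that lay lower, as did 4.91% of all genes. *Traf1*, *Traf2* and *Traf5* overlapped. When the median of the T cell markers was used in place of their sum, *Tnfaip3*, *Traf4* and *Birc3* remained higher and *Traf1*, *Traf3* and *Tnip1* were lower. The share of all genes on this scale is not given here, so these counts cannot be set against it. Plasma and B cell markers were also higher in the second experiment (6332 and 6594 against 7.14 and 242 CPM), and their part in the level of *Birc3* was not tested.

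**Figure D3:**
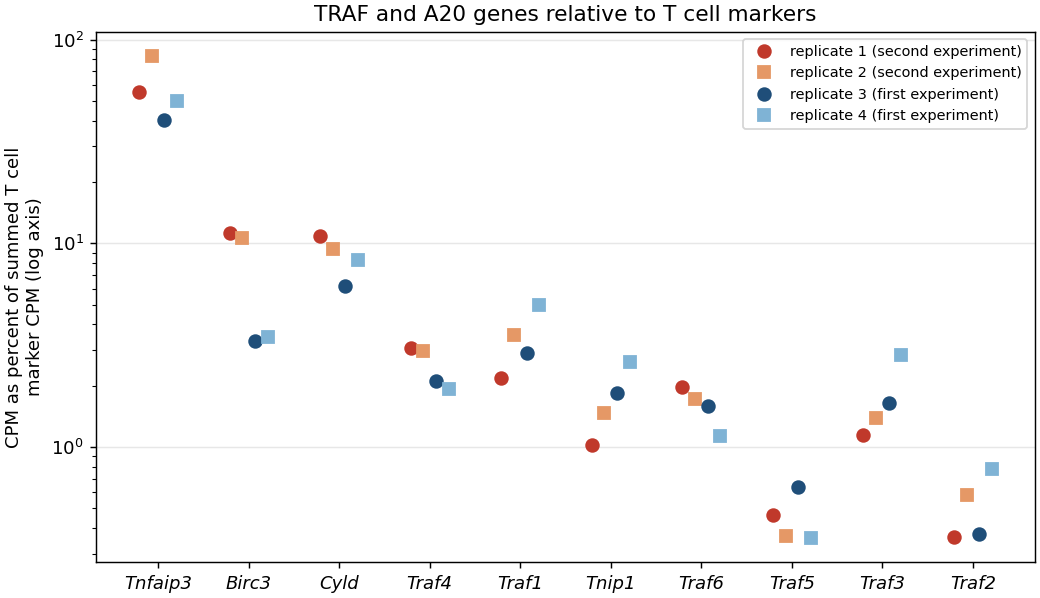
CPM of each gene as a percent of the summed CPM of 10 T cell markers (log axis), with 1 point per library and the colours of the plot of TPM levels. For *Birc3* the red and orange points (second experiment) lie together at 11.2% and 10.6%, above the blue points at 3.31% and 3.46%, whereas *Tnip1* and *Traf3* show the opposite order.

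Ratios between 2 genes of the set in the same library do not depend on library size or on the scaling of the library. Of the 45 pairs, 29 had ratios that did not overlap between the experiments, compared with 28.7% of all pairs of genes that passed the filter. The pairs share genes and are not independent, and 9 of the 29 are the pairs of *Birc3*, whose ratio to each of the other 9 genes was higher in the second experiment. *Tnip1* was 0.09, 0.14, 0.56 and 0.75 times *Birc3* in CPM in replicates 1 to 4, the widest gap of all pairs. *Tnfaip3* exceeded *Tnip1* by 53.7-fold and 56.1-fold in the second experiment and by 21.9-fold and 19.1-fold in the first. These ratios are in CPM, and per length (TPM) they were 35.6, 37.2, 14.5 and 12.7 in replicates 1 to 4. The A20 transcript and that of its partner thus kept no fixed proportion in these libraries, although their ratio was close to equal within an experiment. Plasma and B cell markers and *Rn45s* also differed between the experiments, and their part in this ratio was not tested. Among the 36 pairs without *Birc3*, 20 did not overlap.
*Traf3* and *Tnip1* varied least against each other, with ratios of 1.11, 0.94, 0.89 and 1.09 in replicates 1 to 4 (SD of the log2 ratio 0.16). *Traf4* and *Traf6* were also close, with *Traf4* at 1.54, 1.72, 1.32 and 1.70 times the CPM of *Traf6*. *Traf1* was 6.04, 6.06, 7.79 and 6.41 times as high as its partner *Traf2*. *Tnfaip3*, *Cyld*, *Traf4* and *Traf6* overlapped between the experiments in each ratio among themselves. *Traf1*, *Tnip1* and *Traf3* lay lower in the second experiment against *Tnfaip3*, *Cyld* and *Traf4*.

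**Figure D4:**
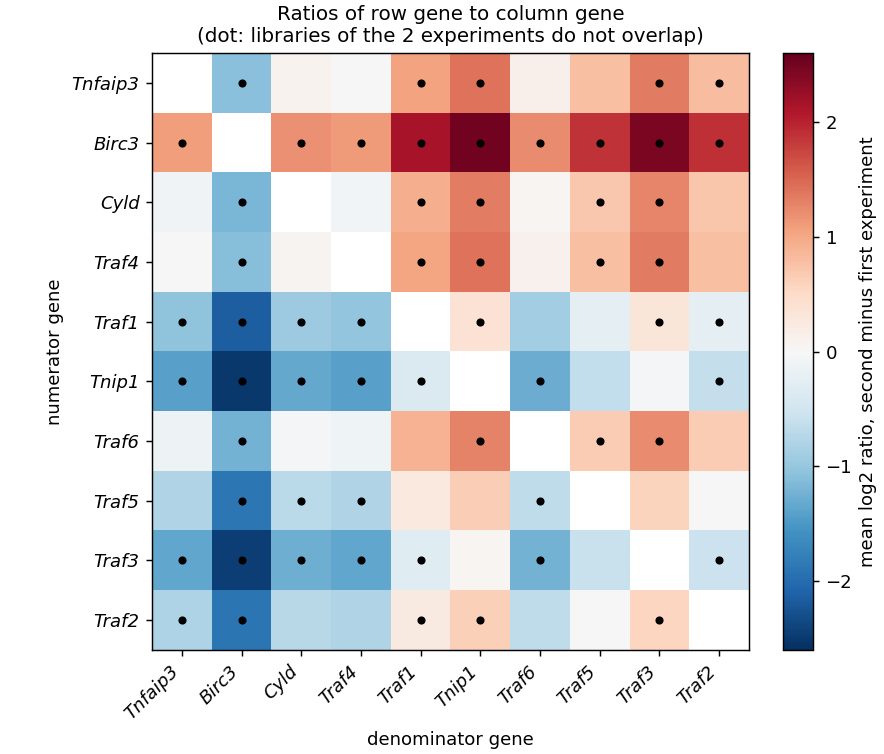
Mean log2 ratio of the row gene to the column gene in the second minus the first experiment (red, higher in the second), with a dot where the libraries of the experiments do not overlap. The row of *Birc3* is red with a dot against each of the other 9 genes, and the rows of *Tnip1* and *Traf3* are blue against most genes.

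The genes whose pattern over the 4 libraries was most like that of *Tnfaip3* were sought among all 11688 other genes that passed the filter, by the root mean square difference of log2 CPM after each gene's mean was removed. The nearest were *Pgm2l1* (0.03 log2 units), *Neurl3* (0.04), *Ddx50* (0.05), *Ubr1* (0.05) and *Zc3hav1* (0.05). *Neurl3* had 1101, 537, 1231 and 513 CPM in replicates 1 to 4. *Traf4*, the nearest gene of the set, was at a distance of 0.27 and rank 441. With 4 libraries, many genes share such a pattern.

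The other genes of the pathway were taken from 5 lists of 63 genes, of which 59 passed the filter. None of them differed between the experiments by edgeR at an adjusted p under 0.05, and 2 did at an unadjusted p under 0.05. In replicate 4 against 3 and in replicate 2 against 1, 29 of the 59 were lower (29.9% of all genes). Of these, 8 were lower by over 1 log2 unit in both (8.08% of all genes). Another 4 of the 59 were higher by over 1 log2 unit in both (19.0% of all genes). Both libraries of the second experiment lay below both of the first for 3 of the 59 (14.4% of all genes) and above them for 10 (14.7%). These shares of all genes also apply to the counts of the single lists below.
Of the receptors to which TRAFs bind, directly or through an adaptor, 11 passed the filter. Of these 11, 7 were lower in both comparisons within experiments, 4 of them by over 1 log2 unit. The median log2 fold change of the 11 between the experiments was 0.08. Both libraries of the second experiment lay above both of the first for 1 and below for 0. The highest by mean TPM were *Tnfrsf18* (GITR, 407 ± 188 TPM), *Tnfrsf1b* (TNFR2, 294 ± 214) and *Tnfrsf1a* (TNFR1, 157 ± 84.5). *Tnfrsf1b*, a receptor that binds TRAF2 directly, had 815, 105, 906 and 317 CPM in replicates 1 to 4. *Tnfrsf11a* (RANK), the lowest that passed the filter, ran the other way, with 1.25, 32.9, 1.12 and 38.6 CPM in replicates 1 to 4, high in the libraries with more epithelial transcripts, whose part in it was not tested. In replicates 1 and 3, *Tnfrsf11a* had only 9 and 5 counts.
Of the 19 proximal partners of TRAFs, 10 were lower in both comparisons within experiments, 1 of them by over 1 log2 unit. *Casp8*, the caspase of the death receptor complex, had 185 ± 45.7 TPM, *Bcl10*, through which antigen receptors reach TRAF6, 112 ± 34.8 TPM and the TRAF-binding regulator *Tank* 87.9 ± 68.4 TPM. *Traf3ip1* was the lowest at 3.16 ± 2.38 TPM. *Birc2*, which encodes cIAP1, was singled out after its values were seen. It had 130.4 and 138 CPM in the second experiment and 88.2 and 25.8 CPM in the first. Both libraries of the second experiment lay above both of the first for 14.7% of all genes in CPM. *Birc3* had this order relative to T cell markers, but overlapped in CPM.
The ubiquitin-conjugating enzymes were led by *Ube2d3* (249.5 ± 36.2 TPM), *Ube2v1* (86.9 ± 34.6) and *Ube2n* (59.2 ± 19.6), with *Sharpin*, a subunit of the linear ubiquitin ligase, lowest at 15.5 ± 6.33 TPM. Of these 6 genes, 3 were lower in both comparisons and 0 by over 1 log2 unit in both.
Among 11 partners of A20 and other deubiquitinases, the A20 adaptor *Tax1bp1* had 234 ± 79.3 TPM and the ligase *Itch* 163 ± 96.5 TPM. *Otulin*, which removes linear ubiquitin chains, had 68.8 ± 53.3 TPM, with 53.2, 6.42, 73.2 and 20.3 CPM in replicates 1 to 4. *Usp18* was the lowest at 5.59 ± 5.53 TPM. *Tax1bp1* and *Itch* encode members of the A20 complex, and their mean TPM lay between those of *Tnfaip3* and *Tnip1*.
Of the 12 downstream kinases and their adaptors, *Tab2* (267 ± 99.1 TPM), *Tbk1* (77.4 ± 41.3) and *Map3k14*, which encodes the NIK kinase that TRAF3 restrains (58.8 ± 40.5), were the highest and *Tab3* the lowest (11.7 ± 3.34). *Map3k14* had 94.1, 44.9, 190.4 and 37.6 CPM in replicates 1 to 4, and its mean TPM exceeded that of *Traf3*.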

How the data were processed

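RNA-seq counts of 4 libraries of SI-LP NKT cells (1 condition, 2 experiments) were analysed. According to the paper and the header of the file, the authors aligned read pairs with HISAT2 and deposited raw counts on exons of RefSeq genes from featureCounts 1.6.4, with no strand option. The header names mm10, and positions are given on GRCm38. The methods name GRCm39. Of 6 library columns, 4 match a sample label and 2 were not used. Counts sum to 3882803 to 8732858 per library, which limits precision for low genes.

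CPM used TMM factors (log2 values with a prior count of 2) and TPM the deposited exonic lengths. Differences between experiments were tested with edgeR's quasi-likelihood test (Benjamini-Hochberg over the 11689 genes that reached 10 counts in 2 or more libraries), which was tested on simulated data: it recovered large changes at a low spread between libraries, but called none at the spread of these libraries. Alternatives were DESeq2, other scalings and filters, another prior count and leaving out replicates. The genes and lists were chosen with earlier results of these data known. Named were the 10 genes, the 3 highest and the lowest gene by mean TPM of each pathway list, any gene of these lists with an adjusted p under 0.05 (there were 0) and the 5 genes nearest to *Tnfaip3*. Promoter sequences are from RefSeq (GRCm38.p6). Python 3.11.15 (pandas 2.3.3, numpy 2.4.6, matplotlib 3.10.9) and R 4.3.3 were used, the latter with DESeq2 1.42.0, limma 3.58.1 and edgeR 4.0.16.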

Additional observations from a re-analysis of the deposited data

How the results depend on the processing

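No gene of the set was called between the experiments under the alternatives with all 4 libraries (DESeq2, median-of-ratios factors, library size alone and both other filters). The main edgeR test called 0 of all 11689 genes too. With 2 libraries a side and the spread between these libraries, the absence of calls does not show that levels were equal. It is therefore no measure of how stable the levels of the set were. Over all genes, edgeR called 0, DESeq2 41 and edgeR on unfiltered counts 60, and with one replicate left out edgeR called from 0 to 7 (7 without replicate 3 and 6 without replicate 4); the cause was not tested. The count of genes lower by over 1 log2 unit within both experiments (6) was 5 with median-of-ratios factors, 4 with library size alone, 6 with a prior count of 0.5 and 0 relative to the summed T cell markers, a scale on which those markers are fixed by construction. The share of all genes under these settings is not given here. Non-overlap between experiments in CPM (4 genes lower, 0 higher) was examined with alternatives chosen after seeing the data. It became 2 lower and 5 higher relative to the summed T cell markers (4.91% and 17.5% of all genes). The counts were 3 and 3 relative to the median of these markers, and 4 and 1 with library size alone. No share of all genes is given for the latter scales, so their counts have no background to be read against. In TPM, *Traf1* and *Traf2* of the 4 genes overlapped. Non-overlapping pairs (29) ran from 34 to 39 with one replicate left out, which leaves fewer libraries to overlap. The share of all pairs of genes with one replicate left out is not given here. The median percentile of the set (74.9) ran from 65.4 to 77.1, less than its SD of 14.1 between libraries, and mean CPM moved by less than 1 SD in all 60 alternatives, although that SD is large: *Birc3* went from 209 to 133 CPM without replicate 1 and *Traf5* from 16.7 to 10.7 CPM without replicate 3. No paired analysis was possible because the libraries share 1 condition. Each of the 10 genes had at least 29 counts in every library, but depth limits precision for those with few counts. The gap of *Traf2* between the experiments in CPM rests on 101 counts in replicate 1 and 63 in replicate 4.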

Other observations

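A few genes of the pathway ran against the TRAF and A20 genes within the experiments, and were singled out after their values were seen. Besides *Tnfrsf11a*, 3 of the 59 had log2 differences above 1 for replicate 4 against 3 and also for 2 against 1. Such differences were found for 19.0% of all genes. *Tradd*, the adaptor that links TNFR1 to TRAF2, had 0.693, 4.596, 1.34 and 7.53 CPM in replicates 1 to 4. *Tifa*, which binds TRAF6, had 6.10, 43.3, 0 and 10.04 CPM. *Tab1*, a subunit of the TAK1 complex, had 8.17, 17.04, 3.13 and 22.3 CPM. Some of these values rest on few counts. In replicates 1 and 3, *Tradd* had 5 and 6 counts, *Tifa* 44 and 0 and *Tab1* 59 and 14. The higher libraries are those with more epithelial transcripts, whose part in these values was not tested. The receptor of the B cell survival factor BAFF, *Tnfrsf13c*, had 33.1 and 33.4 CPM in the second experiment against 0.446 and 1.51 CPM in the first, the order of the plasma and B cell markers, whose part in it was not tested. In replicates 3 and 4, *Tnfrsf13c* had only 2 and 6 counts.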
